A study of Homo sapiens with 6 samples.

Results

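NRF2, encoded by NFE2L2, is the transcription factor that drives the antioxidant response, and 9 genes of this response were followed here in RL95-2, a cell line established from a human endometrial carcinoma. The members were chosen by symbol from the deposited gene counts, and all 9 were found among 23228 genes. They are NFE2L2 itself, its repressor KEAP1, and the target genes NQO1, HMOX1, GCLC, GCLM, SLC7A11, TXNRD1 and SRXN1. The experiment asked what products of fat cells do to the transcriptome of endometrial cancer cells. The 3 Control cultures were kept in serum-free RPMI mixed with DMEM in equal parts. The 3 ADP-CM cultures were kept in serum-free RPMI mixed in equal parts with DMEM that mature human adipocytes had conditioned, and the incubation lasted 24 h. Both groups are therefore the same line without serum, and each culture gave 1 poly(A) library. No group received medium conditioned by another cell type, so adipocyte products and the general effects of used medium cannot be told apart. Whether the 3 ADP-CM cultures shared 1 adipocyte preparation is not given in the sources used here.

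In resting cells KEAP1 ties NRF2 to a CUL3 ubiquitin ligase, and the factor is degraded. Oxidants and electrophiles modify KEAP1, after which NRF2 accumulates, pairs with a small MAF protein and binds antioxidant response elements near its target genes. The transcription repressor BACH1 competes for the same elements. The targets make and recycle glutathione and thioredoxin, detoxify quinones and degrade heme. Because NRF2 is controlled mainly by protein stability, its mRNA is not a measure of its activity.

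ADP-CM moved the members in both directions. TXNRD1 fell by 32.2%, the most of the members, NQO1 fell by 21.4% and KEAP1 fell by 9.74%. HMOX1 rose by 22.4% and GCLM by 11.3%. SLC7A11 fell by 5.03%, while GCLC, SRXN1 and NFE2L2 were not past the threshold. Of the 9 members, 4 were lowered and 2 raised with a Benjamini-Hochberg-adjusted p below 0.01 over 12663 tested genes, by the quasi-likelihood test of edgeR. Of all tested genes 26.5% passed this limit, 13.0% lowered and 13.5% raised. The members are well expressed, and among the 5177 genes with a mean of at least 50 CPM (read counts scaled to library size, with TMM factors) the share was 37.9%, with 18.3% lowered and 19.6% raised. For 6 members no library of one group lay within the range of the other, where the share over all tested genes was 45.5%. No member passed a 1.5-fold change as well, by edgeR, by DESeq2 or at an unadjusted p under 0.05, against 2.27% of all tested genes by edgeR. The median log2 fold change was -0.06 for the members and -0.00 for all tested genes.

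**Figure D1:**
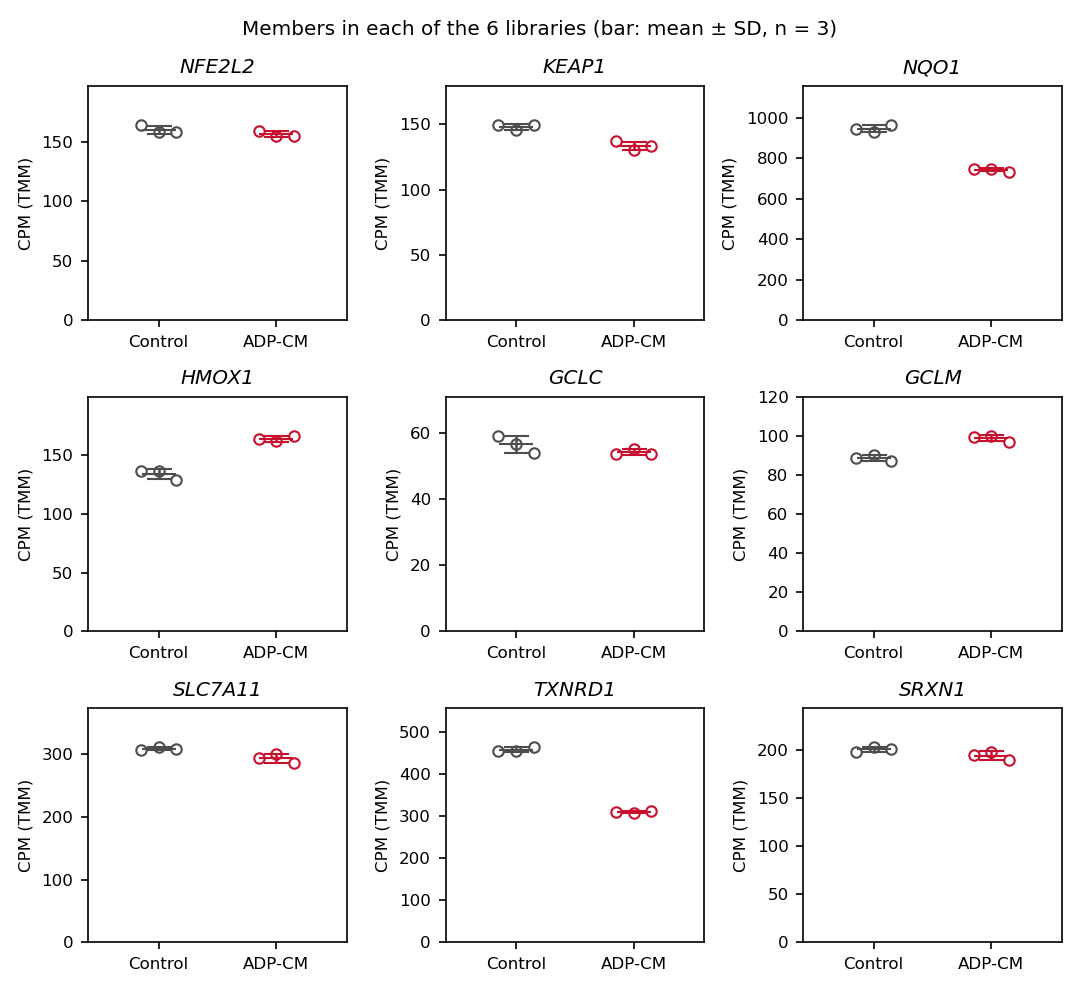
Library-scaled read counts (CPM with TMM factors, axes from 0) of the 9 members in the 3 Control and 3 ADP-CM libraries, with open circles for libraries and bars for mean ± SD (n = 3). TXNRD1 fell from 457.7 to 310.2 CPM and NQO1 from 945.6 to 743.5 CPM, while HMOX1 rose from 133.8 to 163.7 CPM.

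The sequences at the start of these genes are shown first, since an antioxidant response element is what the members are expected to share. RefSeq promoter windows of GRCh38.p14, from 250 bases before to 50 bases after a start site, were found for 7 members in 10 windows, and HMOX1 and SLC7A11 had none. The element's core TGACNNNGC, which reads GCNNNGTCA when it lies on the other strand, was searched on both strands. It was found in 4 of the 10 windows, belonging to GCLM, KEAP1 and TXNRD1, and in 13.3% of 35116 windows of all genes. None of the matches overlapped the AP-1 site TGACTCA or TGAGTCA. NQO1, GCLC, SRXN1 and NFE2L2 had no match in these windows, which says nothing about elements farther away. The matches are printed 5′ to 3′ on the strand of the gene, with the core in capitals.
GCLM, first capital 34 bases before the start, chr1:93909436-93909484, minus strand: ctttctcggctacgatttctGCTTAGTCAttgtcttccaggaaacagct
KEAP1, 54 bases before the start, chr19:10502797-10502845, minus strand: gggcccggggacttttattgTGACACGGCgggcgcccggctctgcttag
KEAP1, 31 bases before the start, chr19:10502774-10502822, minus strand: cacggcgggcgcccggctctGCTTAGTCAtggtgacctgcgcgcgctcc
TXNRD1, first window, 99 bases before the start, chr12:104215660-104215708, plus strand: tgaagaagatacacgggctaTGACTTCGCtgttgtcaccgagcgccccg
TXNRD1, first window, 8 bases before the start, chr12:104215751-104215799, plus strand: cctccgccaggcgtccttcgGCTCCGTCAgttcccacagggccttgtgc
TXNRD1, second window, 102 bases before the start, chr12:104286910-104286958, plus strand: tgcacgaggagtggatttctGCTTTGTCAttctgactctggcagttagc
GCLM and KEAP1 hold the same 9 letters on the same strand, GCTTAGTCA, close to their starts. The 3 genes with a match moved in different directions with ADP-CM, GCLM upward and KEAP1 and TXNRD1 downward. A match is a description of letters, and binding of NRF2 was not measured.

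NFE2L2 and KEAP1 set the pathway's input. NFE2L2 (chromosome 2, 178083395 to 178257484, GRCh37, minus strand) had 164.1, 158.0 and 158.7 CPM in the Control libraries and 159.5, 155.3 and 154.8 CPM in the ADP-CM libraries. The groups overlapped. The difference was -0.03 on the log2 scale (95% interval -0.09 to 0.02, edgeR adjusted p = 0.375). KEAP1 (chromosome 19, 10596801 to 10614234, minus strand), the adaptor that presents NRF2 for degradation, had 149.2, 145.3 and 149.2 CPM in Control and 136.8, 130.5 and 133.2 CPM in ADP-CM. Every ADP-CM library lay below every Control library. KEAP1 thus changed by a log2 value of -0.15 (SE 0.030, edgeR adjusted p = 4.82e-05).

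TXNRD1 (chromosome 12, 104609557 to 104744085, plus strand) encodes cytosolic thioredoxin reductase, a selenoprotein that uses NADPH to keep thioredoxin reduced. It had 455.0, 453.9 and 464.1 CPM in Control against 309.6, 307.9 and 313.2 CPM in ADP-CM, with between 5605 and 7936 reads in each library. The gap between the groups was far wider than the spread within either. At -0.56 (log2, SE 0.022, edgeR adjusted p = 4.49e-32) its change was the largest in size among the members and ended just short of the study's 1.5-fold limit. By unadjusted p-value TXNRD1 ranked 12 among the 12663 tested genes. SRXN1 (chromosome 20, 627259 to 633844, minus strand) encodes sulfiredoxin, which repairs over-oxidized peroxiredoxins. It had 198.6, 203.3 and 201.0 CPM in Control and 195.0, 198.6 and 189.8 CPM in ADP-CM, and the groups overlapped at 198.6 CPM. The estimate was -0.05 on the log2 scale (95% interval -0.10 to 0.01, edgeR adjusted p = 0.158). In the GENCODE annotation 90.7% of the exonic bases of SRXN1 are shared with another gene model on its strand, so its count is uncertain.

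NQO1 (chromosome 16, 69740899 to 69760571, minus strand) encodes the NAD(P)H quinone dehydrogenase that reduces quinones without releasing semiquinone radicals. It had 944.2, 929.4 and 963.1 CPM in Control and 748.8, 748.2 and 733.5 CPM in ADP-CM. The groups were clearly apart (log2 fold change -0.35, SE 0.019, edgeR adjusted p = 1.06e-24). An annotated gene on the opposite strand covers 22.8% of the exonic bases of NQO1, and the strand setting of the counting is not given in the sources used here. HMOX1 (chromosome 22, 35776354 to 35790207, plus strand) encodes heme oxygenase 1, which breaks down heme and is repressed by BACH1. It had 136.5, 136.5 and 128.5 CPM in Control and 163.5, 161.6 and 166.1 CPM in ADP-CM. All ADP-CM libraries were above all Control libraries (log2 fold change 0.29, SE 0.030, edgeR adjusted p = 1.52e-12).

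Of the glutathione genes, GCLC and GCLM encode the catalytic and modifier subunits of glutamate-cysteine ligase, the first step of glutathione synthesis, and SLC7A11 encodes the cystine importer xCT that supplies it. GCLC (chromosome 6, 53362139 to 53481768, minus strand) had 59.2, 56.9 and 54.1 CPM in Control and 53.9, 55.4 and 53.9 CPM in ADP-CM. The groups overlapped (log2 fold change -0.06, 95% interval -0.15 to 0.03, edgeR adjusted p = 0.284). GCLM (chromosome 1, 94350755 to 94375012, minus strand) had 88.7, 90.6 and 87.5 CPM in Control and 99.9, 100.1 and 97.1 CPM in ADP-CM. Here the ADP-CM libraries were the higher ones throughout (log2 fold change 0.15, SE 0.034, edgeR adjusted p = 0.000178). SLC7A11 (chromosome 4, 139085251 to 139163503, minus strand) had 306.3, 310.6 and 307.3 CPM in Control and 293.0, 298.9 and 285.8 CPM in ADP-CM. Its ADP-CM libraries were all below its Control libraries, but by little (log2 fold change -0.07, SE 0.023, edgeR adjusted p = 0.0085). That call was lost with DESeq2 (adjusted p = 0.0274), with plain library sizes (0.0111 from edgeR) and without any library other than ADP-CM replicate 2 (up to 0.0495 from edgeR).

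**Figure D2:**
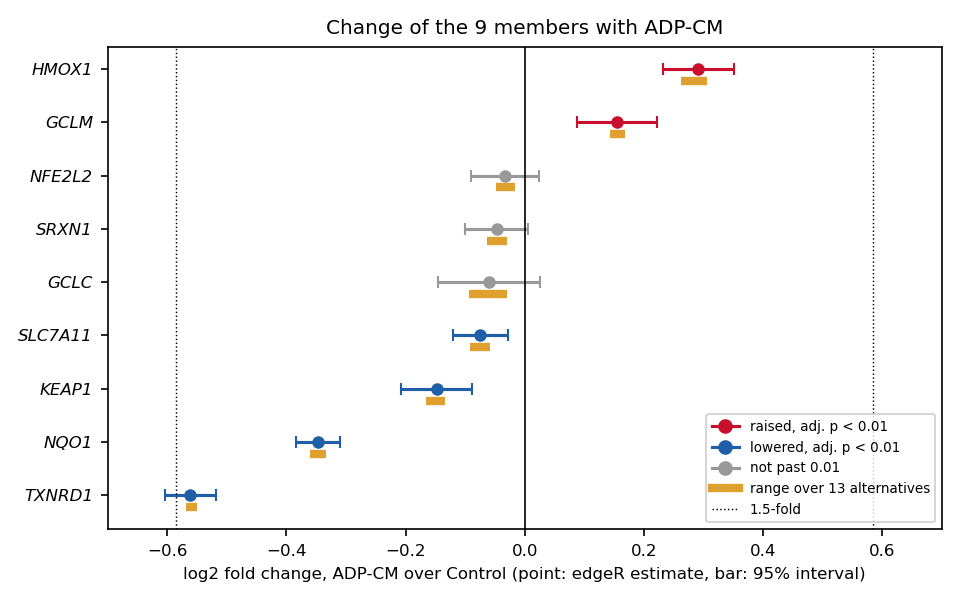
Log2 fold change of each member, ADP-CM over Control, with points for the edgeR estimate, bars for its 95% interval, orange bands for the range over 13 other settings and dotted lines at 1.5-fold. The TXNRD1 point at -0.56 lies inside the 1.5-fold line that its interval crosses, HMOX1 (0.29) and GCLM (0.15) lie above 0, and no band crosses 0.

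A ratio of the reads of 2 members within a library does not depend on how libraries are scaled. Here 4 such ratios were picked after the values of the members had been seen, so they are a description without a test. GCLM had 1.499, 1.59 and 1.62 reads per GCLC read in Control and 1.85, 1.81 and 1.80 in ADP-CM. HMOX1 had 0.145, 0.147 and 0.133 reads per NQO1 read in Control and 0.218, 0.216 and 0.226 in ADP-CM. Both ratios were higher in every ADP-CM library than in any Control library, by 0.21 and 0.64 on the log2 scale. TXNRD1 had 0.482, 0.488 and 0.482 reads per NQO1 read in Control and 0.413, 0.412 and 0.427 in ADP-CM, so this ratio was lower in each ADP-CM library. KEAP1 had 0.909, 0.920 and 0.940 reads per NFE2L2 read in Control and 0.857, 0.841 and 0.860 in ADP-CM.

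**Figure D3:**
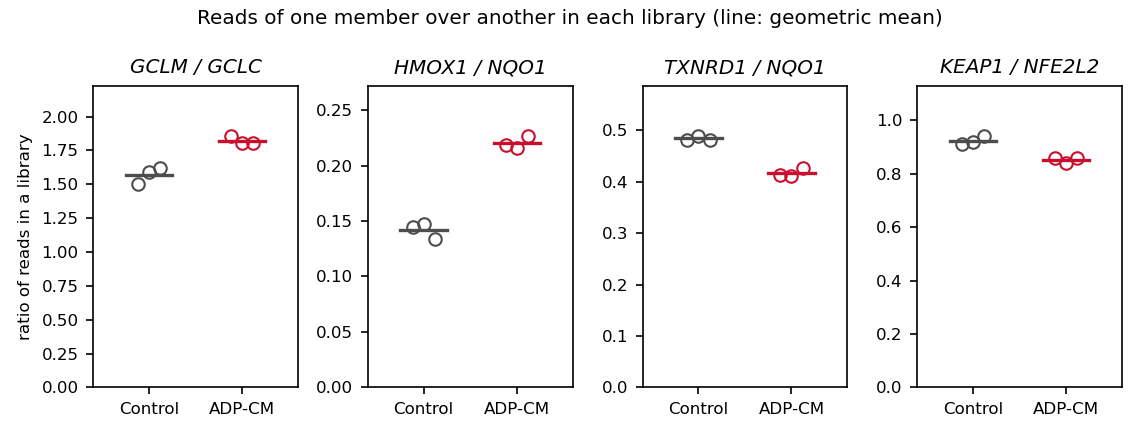
Reads of a member divided by reads of another in each library (vertical axes from 0), with circles for the 3 libraries of a group and a line for their geometric mean. The ratio of HMOX1 to NQO1 rose from 0.141 to 0.220 and that of GCLM to GCLC from 1.57 to 1.82, while TXNRD1 to NQO1 went from 0.484 to 0.417.

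To compare levels between genes, CPM was divided by the length of each gene's canonical GENCODE transcript. In Control, NQO1 was the highest at 375 ± 6.71 CPM per kb (SD, n = 3), and TXNRD1 was next at 118.6 ± 1.45 CPM per kb. HMOX1 (86.1 ± 2.99), SRXN1 (79.5 ± 0.931), NFE2L2 (65.5 ± 1.37) and KEAP1 (57.7 ± 0.872 CPM per kb) followed, and SLC7A11 was at 31.9 ± 0.235 CPM per kb. GCLM (18.2 ± 0.317) and GCLC (14.99 ± 0.672 CPM per kb) were the lowest. No neighbours in this order overlapped in either group. With ADP-CM the order changed in 1 place, where HMOX1 at 105.4 ± 1.46 CPM per kb (SD, n = 3) passed TXNRD1 at 80.4 ± 0.706 CPM per kb. These levels rest on 1 transcript length per gene, and TXNRD1 has several start sites.

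The genes whose pattern over the 6 libraries was nearest to that of TXNRD1 were LMO7, SC4MOL and ID3, at root mean square distances of 0.021, 0.022 and 0.025 on the log2 scale among 9561 genes with a mean of at least 10 CPM. SC4MOL, now MSMO1, encodes a sterol methyl oxidase of cholesterol synthesis, and ID3 an inhibitor of helix-loop-helix transcription factors. LMO7 had 52.1 ± 1.19 CPM in Control and 35.4 ± 1.09 CPM in ADP-CM (SD, n = 3 each).

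Further genes of the pathway were taken from lists written from general knowledge. Among the partners and regulators of NRF2, 3 of 17 tested genes rose and 2 fell, with a median log2 fold change of 0.04. With 29.4% called, the list is close to the 26.5% of all tested genes and below the 37.9% of the well expressed ones. DESeq2 called 1 raised and 2 lowered of 18, beside 1030 raised and 953 lowered of all 16801 genes it tested. NFE2L3, a relative of NFE2L2, rose by 0.51 on the log2 scale, from 31.9 ± 1.78 to 45.6 ± 1.84 CPM (SD, n = 3 each). The products of SQSTM1 (p62) and DPP3 bind KEAP1 and spare NRF2, and SQSTM1 fell by 11.2% while DPP3 fell by 19.2%. BACH1, the repressor of HMOX1, rose by 14.1% (edgeR adjusted p = 0.000912), but that call was lost with DESeq2 and without Control replicate 1 or ADP-CM replicate 2 (adjusted p up to 0.0306). GSK3B was raised by 6.02%, a call lost in 6 of 13 other settings. The small MAF genes MAFF, MAFG and MAFK, named after their values were seen, were not past the threshold (log2 fold changes 0.15, 0.07 and 0.04, with the sign of MAFK turned in 1 of 13 other settings). Without Control replicate 1 or ADP-CM replicate 2, 3 genes of this list were called instead of 5.

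Of the genes that use glutathione or supply its synthesis, 8 of 25 tested fell and 4 rose, with a median log2 fold change of -0.00. This is 48% called, against 26.5% of all tested genes and 37.9% of the well expressed ones. DESeq2 called 5 lowered and 4 raised of 29 here, beside 953 lowered and 1030 raised of 16801 genes. The fall of GPX4, a lipid hydroperoxide peroxidase named after its values were seen, was lost in 9 of 13 other settings. GPX1, a selenium-dependent glutathione peroxidase, had 290.3 ± 4.03 CPM in Control and 232.3 ± 9.23 CPM in ADP-CM (SD, n = 3 each), a fall past the threshold (log2 fold change -0.32, edgeR adjusted p = 6.77e-17). SLC3A2, the heavy chain that xCT needs at the membrane, fell by 13.9%, from 531.0 ± 10.7 to 457.4 ± 13.3 CPM (SD, n = 3 each). Glutathione reductase (GSR) fell by 12.7%, and of the glutathione transferases GSTP1 fell by 9.63% and MGST3 fell by 17.04%. The transferase GSTZ1 fell by 32.5%, from 6.21 to 4.19 CPM. The list's 4 rises were those of ABCC2 (33.1%), ABCC1 (11.1%), GPX8 (10.95%) and GLO1 (7.87%). GSTZ1 and these raised genes were named after their values were seen. In the thioredoxin and peroxiredoxin list 4 of 17 fell and 3 rose, or 41.2% called, near the 37.9% of well expressed genes. One of these falls, that of mitochondrial TXNRD2, was lost in 7 of 13 other settings and was named for that reason. Thioredoxin itself (TXN), the substrate of TXNRD1, fell from 259.5 ± 4.83 to 237.3 ± 6.47 CPM (SD, n = 3 each), and PRDX2 fell by 8.78%. MSRA, a methionine sulfoxide reductase, fell by 35.7% and was the list's one change over 1.5-fold. PRDX6 rose by 13.7% and SESN2, a sestrin, by 24.9%. The list's other rise was that of TXNIP (8.96%), named after its values were seen. Without Control replicate 1 the list had 2 rises.

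NADPH is the electron donor of TXNRD1, GSR and NQO1. Of 10 listed genes that supply it, 8 were tested, of which 6 fell and 0 rose in edgeR (also 0 in DESeq2 and at an unadjusted p under 0.05), with a median log2 fold change of -0.18. Among all tested genes 13.0% fell, and among the well expressed ones 18.3%. TKT and PGLS were not past the threshold, and the call of MTHFD2, 1 of the 6, was lost in 5 of 13 other settings (these 3 were named after their values were seen). PGD, a dehydrogenase of the pentose phosphate pathway, fell from 140.0 ± 3.25 to 103.0 ± 1.06 CPM (SD, n = 3 each). TALDO1 fell by 11.5%, and of the NADP-dependent isocitrate dehydrogenases IDH1 fell by 11.9% and IDH2 fell by 16.2%. Among other genes reported as NRF2 targets 14 of 26 tested fell and 2 rose, with a median log2 fold change of -0.15, beside 13.0% lowered and 13.5% raised of all tested genes (18.3% and 19.6% of the well expressed ones). DESeq2 tested 31 genes of this list and called 11 lowered and 1 raised, beside 953 lowered and 1030 raised of 16801 genes. Of the ferritin chains, FTH1 fell by 11.4% and FTL fell by 9.81%. The epoxide hydrolase gene EPHX1 fell by 22.7%, and the aldehyde dehydrogenase gene ALDH3A2 went from 266.9 ± 2.63 to 234.7 ± 5.35 CPM (SD, n = 3 each). SLC6A6, the taurine transporter, rose by 23.8%. The falls over 1.5-fold were those of CES1 (4.27 ± 0.232 to 1.91 ± 0.270 CPM), ALDH3A1 (11.1 ± 0.948 to 6.83 ± 0.833 CPM) and AKR1C2 (8.38 ± 0.646 to 5.29 ± 0.207 CPM, SD, n = 3 each). Ferritin genes and AKR1C2 have close copies in the genome, so their counts are uncertain.

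**Figure D4:**
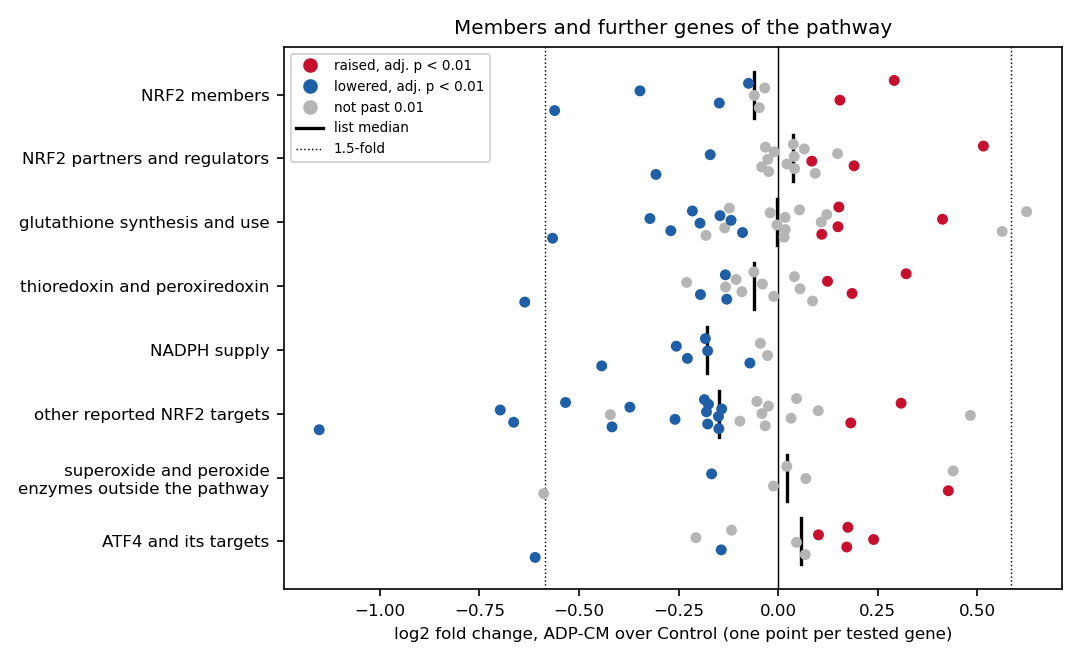
Log2 fold change, ADP-CM over Control, of every tested gene of the members and 7 further lists, with red for raised, blue for lowered and grey for genes not past an adjusted p-value of 0.01 by edgeR. Black bars give list medians, which are lowest for the NADPH genes (-0.18) and the other reported NRF2 targets (-0.15).

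Superoxide and peroxide enzymes, listed here as outside the pathway, and targets shared with another factor behaved differently in single genes. SOD2, the mitochondrial superoxide dismutase and an NF-kB target, had 82.4 ± 2.59 CPM in Control and 110.7 ± 1.47 CPM in ADP-CM (SD, n = 3 each), a rise of 0.43 on the log2 scale (edgeR adjusted p = 1.26e-16). Catalase (CAT) fell by 10.9%, a call lost with DESeq2 and without Control replicate 3 or ADP-CM replicate 1. SOD1, CYBB and CYBA were not past the threshold, and 7 genes of this list were tested. SLC7A11 is also a target of ATF4, the factor of the amino acid response. ATF4 and its targets ASNS, PSAT1 and PCK2 rose by 12.7%, 18.05%, 7.25% and 12.9%. ATF5 fell by 34.5% and DDIT4 was the list's other fall, so 4 of 10 rose and 2 fell. This is 60% called, against 26.5% of all tested genes and 37.9% of the well expressed ones. The call of PCK2 was lost in 4 of 13 other settings, that of DDIT4 in 5 of 13, and that of PSAT1 without ADP-CM replicate 1.

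Across the series, between 16262614 and 18363033 reads per library lay on genes, and the spread between replicates of a group exceeded counting noise. Of 11 epithelial and endometrial markers 9 were tested, of which 5 fell and 2 rose. This is 77.8% called, against 26.5% of all tested genes and 37.9% of those with at least 50 CPM. The sum of the 11 was 4165 to 4239 CPM in Control and 3516 to 3563 CPM in ADP-CM. KRT8 fell from 1843 to 1438 CPM, KRT18 from 1508 to 1378 CPM, KRT19 from 267.5 to 148.6 CPM and CDH1 from 162.8 to 121.6 CPM, while PAX8 rose from 150.1 to 181.8 CPM and MSX1 from 20.7 to 24.9 CPM. EPCAM was at 200.05 and 200.8 CPM, and SOX17 had no read. Of 15 adipocyte markers, 5 had no read in any library, ADIPOQ and LEP among them, and 10 had at most 3 reads in every library. Their sum ran from 35.5 to 38.5 CPM in Control and from 33.8 to 34.2 CPM in ADP-CM. Nearly all of it was PNPLA2 (30.1 and 28.9 CPM) and LIPE (5.77 and 3.76 CPM). The summed stromal markers were 61.5 to 68.4 CPM in Control and 78.3 to 79.2 CPM in ADP-CM, nearly all of it COL1A1 (62.3 and 76.7 CPM). Leukocyte markers summed to 8.54 to 9.80 and 10.96 to 13.4 CPM, mostly CD68 (7.43 and 10.7 CPM). Endothelial markers summed to 60.9 to 67.1 and 54.6 to 62.2 CPM, nearly all of it CDH5 (63.5 and 58.6 CPM). The part of these markers in the changes of the members was not tested. In bulk RNA, fewer cells with a transcript and less of it per cell cannot be told apart.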

How the data were processed

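RNA of 3 Control and 3 ADP-CM cultures of RL95-2 cells was sequenced as stranded poly(A) libraries. The authors aligned single reads to hg19 with TopHat2 and deposited raw read counts per RefSeq gene from HTSeq, which leaves out reads with several alignments. Program versions and the strand setting of the counting are not given in the sources used here. Lines of the count tables that name no gene (10.3% of reads on no gene in Control and 11.5% in ADP-CM, 0.719% and 0.714% ambiguous, 20.5% and 20.7% not unique) were kept out of library sizes.

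Counts were analysed in R 4.3.3 with edgeR 4.0.16 (TMM, filterByExpr, quasi-likelihood test, Benjamini-Hochberg adjustment over all 12663 tested genes). The calling limit was an adjusted p of 0.01. DESeq2 1.42.0, other scalings and filters, a robust fit, the replicate number as a term and each library left out were the alternatives. Variation between replicate cultures beyond counting noise (common BCV) came to 1.67%, which resolves small changes of well expressed genes. Nothing in the labels says that replicates came from separate passages, so p-values measure the spread between these cultures.

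The members, lists and tests were chosen with earlier results of these data known. Named were all members and, of each further list, up to 5 genes with the smallest p-values and a mean of at least 1 CPM. One gene named by this rule is not reported here. Positions are from GENCODE v44 on GRCh37 and promoters from RefSeq on GRCh38.p14. Of the genes listed, 1 was matched by an older symbol, and 2 had no match. On simulated counts for the same comparison edgeR recovered 74.6% of 67 genes changed 1.2-fold and 98.5% of 67 changed 1.5-fold. There were 3 false calls among 12664 genes. The simulation gave every gene the common BCV and changed only genes above a minimum read level, so the rates hold for that setting. Same-numbered libraries of the groups were compared by their deviations from the group means.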

Additional observations from a re-analysis of the deposited data

Results flagged for a closer look

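Reads on no annotated gene, which enter none of the comparisons, took 11.5% of counted reads in ADP-CM (11.5% to 11.6% in single libraries) and 10.3% in Control (10.2% to 10.3%), so every ADP-CM library was above the Control level. The part of this share in the changes of the members was not tested.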

How the results depend on the processing

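Of the 9 members, 8 kept their direction and their side of the adjusted p-value of 0.01 in all 13 other settings, and SLC7A11 kept its direction in all 13 and its call in 6. The number of members called was 5 to 6 when each library was left out and 5 with DESeq2. With DESeq2 1983 of 16801 tested genes were called, and 176 over 1.5-fold. It called 3 of 18 NRF2 partners and 1 of 10 superoxide and peroxide enzymes. Leaving out each library gave 3 to 5 called partners and 1 to 3 called superoxide and peroxide enzymes, with the cause not tested. With the replicate number as a block 3502 genes and 6 members were called, and no member's call changed. Same-numbered libraries deviated together only weakly (correlations 0.073, 0.014 and 0.097 across genes). Of the other combinations, ADP-CM replicate 2 with Control replicate 1 was at 0.026, and the rest lay between -0.093 and -0.006. The numbers were not taken as pairs in the main fit. Other scalings moved the median of all genes to at most 0.0007 from -0.0023 on the log2 scale. At this depth the 95% interval of GCLC, the member with the fewest reads, still allows a fall of 0.15 on the log2 scale.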

Other observations

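Several genes reported as NRF2 targets had almost no reads in RL95-2. GSTM1 and GSTA1 had 0 reads in all 6 libraries, and GPX2 and AKR1B10 had at most 2 and 1. AKR1C1 had 5, 6 and 1 reads in Control and 4, 1 and 41 reads in ADP-CM replicates 1, 2 and 3, and it is nearly identical in sequence to AKR1C2. ME1 had 1, 1 and 0 reads in Control and 3, 1 and 7 in ADP-CM, and CBR1 had 1, 1 and 1 reads in Control and 2, 0 and 6 in ADP-CM. For each of these 3 genes the highest count lay in ADP-CM replicate 3, and none passed the filter on low counts. This was not limited to NRF2 targets. The line markers PGR (2, 0 and 12 reads in ADP-CM) and ESR1 (22, 32 and 51) also peaked there, while COL3A1 did not (47, 21 and 23). NNT had 1, 2 and 9 reads in Control and 0, 1 and 10 in ADP-CM. GSTM3 had 0, 0 and 7 reads in Control and 1, 2 and 5 in ADP-CM. Both thus peaked in Control replicate 3 as well, where AKR1C1, ME1 and CBR1 did not. In each group replicate 3 had the most genes with a read (15205 in Control and 15307 in ADP-CM). These genes were picked after their counts were seen.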
